A study of Mus musculus with 8 samples.

Results

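The genes described here carry glucose through the cell: 35 genes for glucose uptake, glycolysis, lactate handling, the pentose phosphate pathway and the making of activated ribose. They were named as a list of enzymes and transporters, and a gene counted as measured when at least 1 probe set carried its symbol and no other. By this rule 32 of the 35 were measured, through 69 probe sets, among 18194 genes on the array. No probe set with only that symbol was found for Gpi1, Eno1 or G6pdx, so the steps of glucose phosphate isomerase, the main enolase and cytosolic glucose-6-phosphate dehydrogenase were not analysed here. Gapdh was read by array control probe sets that target the cells' own transcript. Each gene stands for its brightest probe set, as a log2 intensity on which a step of 1 is a doubling.

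The cells were primary palatal mesenchyme from C57BL/6J mouse embryos at embryonic day 13.5, grown in DMEM with supplements and collected after 2 passages. Mutants were Tgfbr2 fl/fl; Wnt1-Cre and controls Tgfbr2 fl/fl, so both carried the floxed TGF-beta receptor alleles and only mutants carried Cre. The sample titles call the controls wildtype. Wnt1-Cre acts in neural crest cells and their descendants, and an effect of Cre itself cannot be told apart from loss of the receptor. The question of the study was what a disturbance of TGF-beta signalling does to the metabolism of these cells. Each genotype had 4 arrays, which limits the precision of every value, and nothing in the labels says whether each array came from its own embryo, so the tests weigh differences only against the scatter of these arrays, part of which may be technical.

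Glucose enters cells through transporters of the Slc2a family and is trapped by hexokinases. Glycolysis then splits it into pyruvate, and phosphofructokinase is the main point of control. Lactate dehydrogenase turns pyruvate into lactate and back: Ldha encodes the M subunit, which is abundant in cells that release lactate, and Ldhb the H subunit, which is abundant in tissues that take lactate up. Monocarboxylate transporters carry lactate across the membrane. The pentose phosphate pathway branches off at glucose-6-phosphate and yields NADPH and ribose.

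Several facts of the whole series touch these values. The spiked bioB control was dim in replicates 1 and 2 (6.34 to 6.52) and bright in replicates 3 and 4 (8.24 to 8.79) whatever the genotype, and these are called the low-bioB and the high-bioB arrays. The labels name no batch, so this split rests on the brightness of the control alone. The spiked poly-A controls were dim in 3 arrays, namely mutant 3, mutant 4 and control 3 (6.77 to 7.56, elsewhere 8.53 to 9.21), again with no batch named in the labels. On every one of the 8 arrays 11 of 12 mesenchyme markers exceeded the median probe set (6.94), and Osr2, a palatal transcription factor, was below it on every one. So did 19 of 20 macrophage markers. The macrophage mean ran from 11.19 to 13.32 in mutants and 11.14 to 12.70 in controls. It was 13.31, 13.32 and 13.30 in mutants 1 to 3 but 11.19 in mutant 4, and 12.47, 12.70, 11.21 and 11.14 in controls 1 to 4. Epithelial, endothelial, erythroid, muscle and neural lists had 2 of 7, 1 of 5, 0 of 2, 1 of 5 and 2 of 4 measured markers that bright throughout. In such bulk RNA, fewer cells of a type and less RNA per cell cannot be told apart. Tgfbr2 itself read 12.42 ± 0.47 in mutant and 12.04 ± 0.40 in control arrays (SD, n = 4), and because the labels do not place its probes inside or outside the deleted segment, this checks nothing and every direction rests on the labels.

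No gene of glucose use passed the test between genotypes over all genes (limma with Benjamini-Hochberg adjustment, 0 of 32), where 16 of 18194 genes, 0.0879%, passed (0.066% lower and 0.022% higher in mutants). The smallest adjusted p was 0.223. At an unadjusted p under 0.05 there were 7 of the 32, or 21.9%, against 15.5% of all genes. Of these 5 were lower in mutants (Slc16a3, Ldha, Pfkp, Rpe and Prps1; 15.6%, against 9.68% of all genes) and 2 were higher (Pfkfb4 and Ldhb; 6.25%, against 5.84%). The shares are near the background. The median difference over the 32 was -0.11, beside -0.0078 over all genes, and 19 were negative. For 2 of the 32, Slc2a4 and Rpe, every mutant array was below every control, which is 6.25% against 5.18% of all genes. For 0 of the 32 was every mutant above every control (2.89% of all genes, and 8.07% in either direction).

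**Figure D1:**
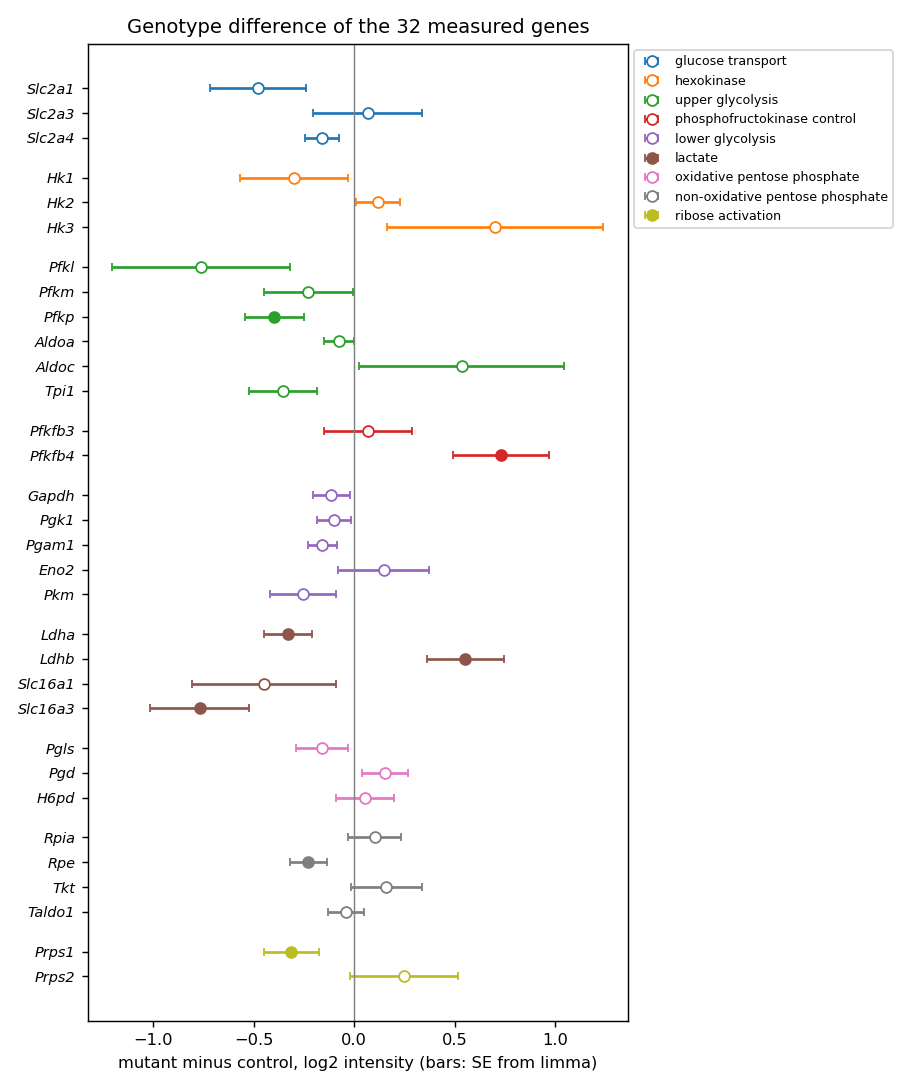
Difference between mutant and control arrays (x axis, log2 intensity) for each of the 32 measured genes, grouped by step of the pathway; points are means over 4 against 4 arrays, bars are limma's SE, and filled points have an unadjusted p under 0.05. Ldhb (0.55) and Pfkfb4 (0.73) lie to the right, and Slc16a3 (-0.77), Ldha (-0.33), Pfkp (-0.40), Rpe (-0.23) and Prps1 (-0.31) to the left.

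The sequences upstream of the 4 members with the smallest p are shown first, because they include both lactate dehydrogenase genes, whose differences had opposite signs. Each is the 250 bases before a RefSeq start site (GRCm38.p6), 5′ to 3′ on the gene's strand. Capitals mark ACGTG or GCGTG on either strand, the cores of the element bound by hypoxia-inducible factor. Hypoxia-inducible factor is a known activator of Ldha, Slc16a3 and Pfkfb4.
Ldha, chr7:46845554-46845803 (+): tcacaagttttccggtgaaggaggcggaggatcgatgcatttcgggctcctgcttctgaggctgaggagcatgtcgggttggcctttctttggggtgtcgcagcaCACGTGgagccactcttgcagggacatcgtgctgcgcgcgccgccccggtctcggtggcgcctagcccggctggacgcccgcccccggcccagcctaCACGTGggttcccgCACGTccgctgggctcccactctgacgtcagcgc
Ldhb, chr6:142507958-142508207 (-): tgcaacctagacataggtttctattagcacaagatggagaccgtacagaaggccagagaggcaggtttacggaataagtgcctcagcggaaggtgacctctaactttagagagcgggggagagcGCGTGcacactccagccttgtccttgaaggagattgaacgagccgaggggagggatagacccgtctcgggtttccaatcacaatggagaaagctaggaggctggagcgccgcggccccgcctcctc
Slc16a3, chr11:120948817-120949066 (+): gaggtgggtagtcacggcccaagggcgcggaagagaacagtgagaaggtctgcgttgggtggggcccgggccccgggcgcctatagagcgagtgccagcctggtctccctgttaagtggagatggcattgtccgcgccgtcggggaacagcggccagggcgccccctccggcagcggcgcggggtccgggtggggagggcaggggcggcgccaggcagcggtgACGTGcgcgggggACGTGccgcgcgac
Pfkfb4, chr9:108991652-108991901 (+): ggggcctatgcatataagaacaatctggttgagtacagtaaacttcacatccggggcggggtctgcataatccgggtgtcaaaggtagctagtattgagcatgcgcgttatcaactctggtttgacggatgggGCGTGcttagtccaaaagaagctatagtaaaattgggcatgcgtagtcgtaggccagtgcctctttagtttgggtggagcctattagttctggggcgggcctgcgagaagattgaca

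The Ldha window holds ACGTG at 5 strand-specific positions, 4 of them in 2 copies of the palindrome CACGTG, which also is the E-box read by Myc and carries ACGTG on both strands. A second RefSeq start of Ldha has 1 GCGTG and no ACGTG. The Slc16a3 window holds ACGTG at 2 positions, and those of Ldhb and Pfkfb4 each hold 1 GCGTG and no ACGTG. Over 32851 promoter windows of this length, 16.6% held ACGTG, 28.2% GCGTG, 38.6% either and 6.02% CACGTG. RefSeq gave 46 windows for 33 of the 35 genes, some of which overlap each other. Of these windows 32.6% held ACGTG, 56.5% GCGTG, 78.3% either core and 8.70% CACGTG. These windows were richer in G and C (median 59.4%, against 52.4% over all windows). Such matches describe letters only, and no binding was measured.

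Both lactate dehydrogenase genes had an unadjusted p under 0.05 in limma, with opposite signs, and neither passed over all genes. Ldha read 13.65, 13.77, 13.63 and 14.15 in mutants 1 to 4 and 14.15, 14.11, 14.18 and 14.09 in controls 1 to 4. Mutants 1 to 3 lay below every control, and mutant 4 lay among the controls. The difference was -0.33 (SE 0.12, unadjusted p = 0.0238, adjusted p = 0.261 in limma), a 1.26-fold lower level in mutants.

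Ldhb read 11.88, 12.10, 12.21 and 12.75 in mutants and 11.56, 11.46, 11.92 and 11.79 in controls. Here 3 mutants lay above every control, and mutant 1 lay between controls 4 and 3. The difference was 0.55 (SE 0.19, unadjusted p = 0.0188, adjusted p = 0.244 in limma), or 1.47-fold. The other 3 probe sets of Ldhb differed by 0.52, 0.56 and 0.45, and the genotypes did not overlap for the one at 0.56. Ldha had 1 probe set.

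The ratio of the subunit genes within an array did not overlap between genotypes. The log2 value of Ldhb minus that of Ldha was -1.77, -1.67, -1.43 and -1.40 in mutants and -2.59, -2.65, -2.26 and -2.30 in controls. Its size depends on the probes, and only its change can be read. The means were -1.57 ± 0.18 in mutants and -2.45 ± 0.20 in controls (SD, n = 4), so the ratio was 1.84-fold higher in mutants, a change of 0.88. An exact two-sided permutation test gave p = 0.0286, the smallest that 4 against 4 arrays allow, and 0.286 after Benjamini-Hochberg adjustment over the 10 isozyme pairs compared, of which this one was picked with its values known. It was 0.90 within the low-bioB and 0.87 within the high-bioB arrays, and leaving out any 1 array gave 0.82 to 0.95. Mutant 4, the highest mutant for both genes, had a ratio of -1.40, next to that of mutant 3. A ratio within an array shows that the genes changed unequally, not which of them changed.

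**Figure D2:**
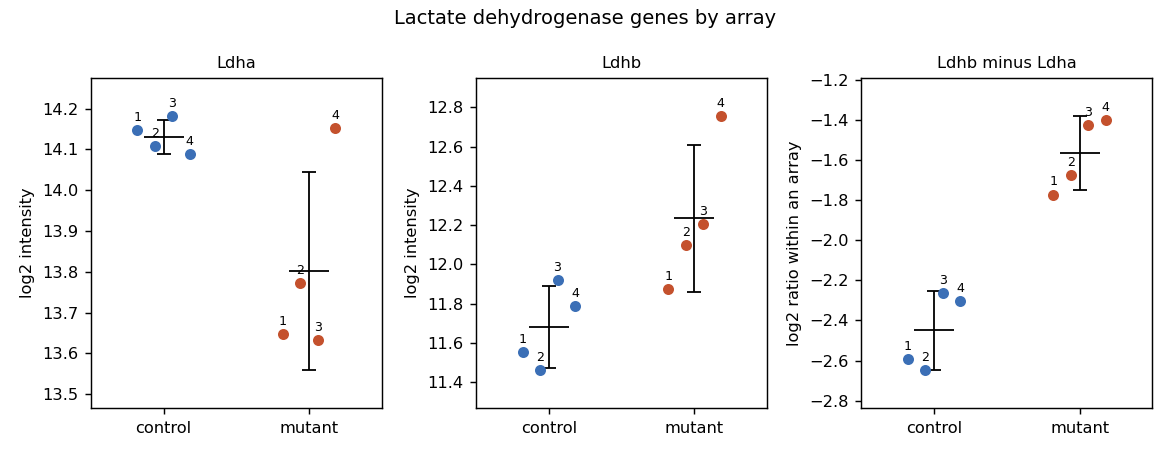
Log2 intensity of Ldha (left) and Ldhb (middle) and the log2 ratio of Ldhb to Ldha (right) on 4 control and 4 mutant arrays; numbers are replicates, and black marks are means with SD. In the right panel the lowest mutant (-1.77) lies above the highest control (-2.26), while in the other panels the genotypes overlap by 1 mutant array.

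With the mean of the macrophage markers as a covariate, the Ldhb difference was 0.82 (SE 0.10) and passed over all genes, with adjusted p = 0.0407 in limma. That fit called 40 of 18194 genes, or 0.220%, and Ldhb was the 1 of the 32 it called. Ldha then differed by -0.20 and did not pass (adjusted p = 0.341 in limma). The change of the ratio in that fit was 1.02. Mutants 1 to 3 had macrophage means of 13.30 to 13.32, above the highest control (12.70). Only mutant 4, at 11.19, lay in the range of the controls, so the adjusted differences lean on that array. Without the covariate the adjusted p of Ldhb in limma ran from 0.0412 to 0.819 over the other settings; it was below the threshold only in the low-bioB arrays alone, which called 2087 genes.

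Neither monocarboxylate transporter gene passed over all genes, and Slc16a3 had the smallest p of the 32. Slc16a3, the transporter MCT4 that exports lactate from glycolytic cells, read 7.04, 7.30, 6.97 and 7.97 in mutants and 8.21, 8.001, 8.47 and 7.68 in controls. Mutants 1 to 3 were below every control, and mutant 4 lay above control 4. The gene had 1 probe set, with a mean of 7.71, and mutants 1 and 3 read close to the median probe set (6.94). The difference of -0.77 (SE 0.25, adjusted p = 0.223 in limma) was the most negative among the 32, at 1.70-fold, and was -0.94 within the low-bioB and -0.60 within the high-bioB arrays. Slc16a1, the transporter MCT1, read 10.60, 10.78, 9.83 and 11.06 in mutants and 11.72, 11.40, 10.47 and 10.46 in controls. Its values overlapped, and its difference of -0.45 was -0.88 within the low-bioB arrays, -0.018 within the high-bioB arrays and -0.20 without mutant 3. The ratio of Slc16a3 to Slc16a1 differed by -0.32 (exact two-sided permutation p = 0.429).

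Control of phosphofructokinase held the most positive difference among the 32. Pfkfb4, a bifunctional enzyme that sets the level of the activator fructose-2,6-bisphosphate, read 9.21, 9.02, 9.56 and 8.30 in mutants and 8.35, 8.45, 8.15 and 8.21 in controls. Mutants 1 to 3 exceeded every control, and mutant 4 lay within the control range. The difference was 0.73 (SE 0.24, adjusted p = 0.230 in limma), or 1.66-fold, with 0.71 within the low-bioB and 0.75 within the high-bioB arrays. The macrophage mean was lower in mutant 4 than in the other mutants, and with it as a covariate the difference was 0.42 (unadjusted p = 0.0291 in limma). Pfkfb3, the related enzyme with the strongest kinase activity, read 10.11 ± 0.23 in mutant and 10.04 ± 0.44 in control arrays (SD, n = 4). Its difference was 0.070, and it was -0.15 without control 4. The second probe set of Pfkfb3, dim at a mean of 6.12, gave 0.23, with every mutant above every control. The ratio of Pfkfb4 to Pfkfb3 was 1.58-fold higher in mutants (0.66, exact two-sided permutation p = 0.0571). That p was 0.286 after Benjamini-Hochberg adjustment over the 10 isozyme pairs. The change was 0.99 within the low-bioB and 0.34 within the high-bioB arrays.

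**Figure D3:**
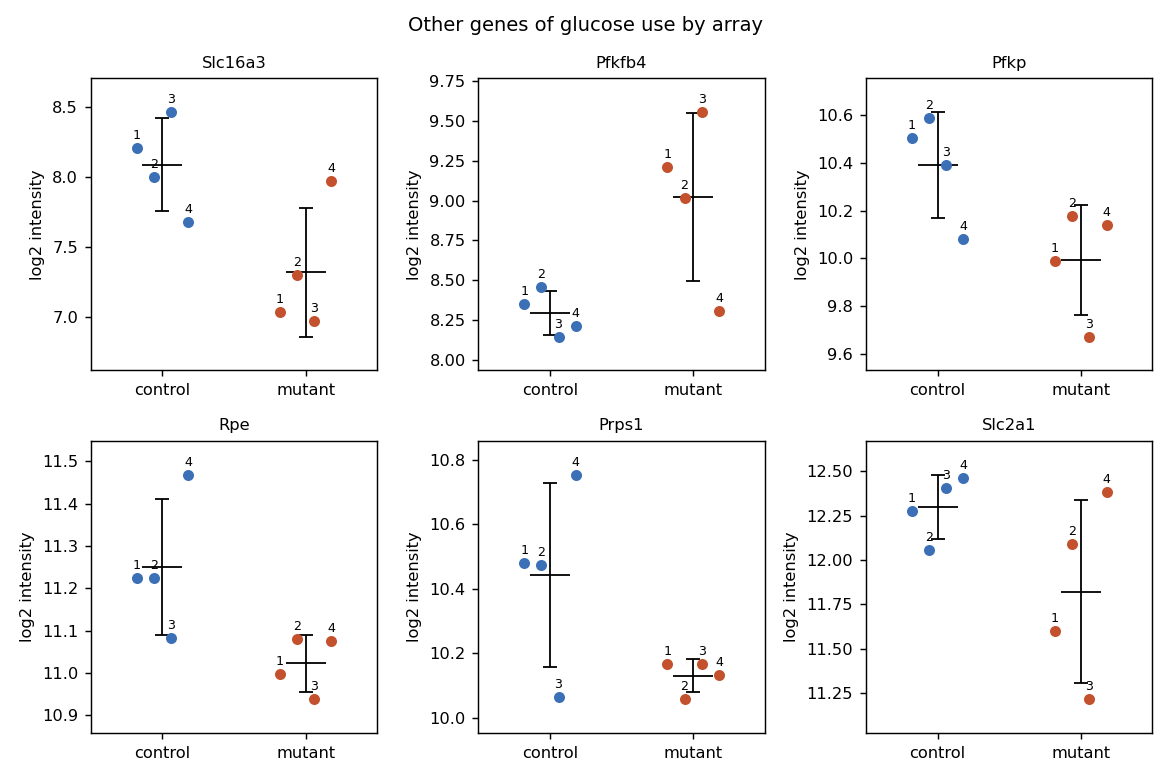
Log2 intensity of Slc16a3, Pfkfb4, Pfkp, Rpe, Prps1 and Slc2a1 on 4 control and 4 mutant arrays; numbers are replicates, and black marks are means with SD. The genotypes do not overlap for Rpe, where mutant 2 and control 3 are less than 0.01 apart, and mutant 4 lies among the controls for Slc16a3.

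Glucose transporters gave 1 non-overlapping gene with a small difference. Slc2a1, the widely expressed transporter GLUT1, read 11.60, 12.09, 11.21 and 12.38 in mutants and 12.28, 12.06, 12.41 and 12.46 in controls. Mutants 1 and 3 lay below all controls, and the difference was -0.48 (SE 0.24, adjusted p = 0.375 in limma), with -0.50 and -0.60 from its other probe sets. It was -0.27 without mutant 3 and -0.21 with the macrophage covariate. Slc2a4, the insulin-responsive GLUT4, read 7.89, 7.92, 7.80 and 7.93 in mutants and 8.23, 7.93, 8.04 and 7.96 in controls. Every mutant was lower, but mutant 4 and control 2 were less than 0.01 apart. The difference was -0.16, and the second probe set of Slc2a4 gave 0.14. Slc2a3, the high-affinity GLUT3, read 8.08, 8.11, 8.77 and 8.75 in mutants and 8.78, 8.53, 8.50 and 7.64 in controls. Its difference was -0.56 within the low-bioB and 0.69 within the high-bioB arrays, so no direction can be given.

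No hexokinase gene had an unadjusted p under 0.05 in limma. Hk1, the widely expressed form, read 10.22, 10.36, 10.55 and 11.23 in mutants and 10.70, 10.50, 11.49 and 10.86 in controls, a difference of -0.30 (SE 0.27). Hk2, the form of insulin-responsive and growing tissues, read 9.92, 10.24, 9.87 and 9.79 in mutants and 9.96, 9.80, 9.85 and 9.73 in controls, a difference of 0.12 (SE 0.11). Both overlapped between genotypes. Hk3, which is expressed mainly in myeloid cells, read 12.02, 11.76, 11.86 and 9.85 in mutants and 11.23, 11.29, 10.44 and 9.73 in controls. Its lowest values were in mutant 4 and control 4, where the macrophage mean was 11.19 and 11.14. The difference of Hk3 was 0.70 (SE 0.54), and it was -0.12 (SE 0.16) with the macrophage mean as a covariate.

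In upper glycolysis 5 of 6 differences were negative, as were 51.7% over all genes, and Pfkp was the 1 gene with an unadjusted p under 0.05 in limma. The 3 phosphofructokinase genes encode the liver, muscle and platelet subunits. Pfkp read 9.99, 10.18, 9.67 and 10.14 in mutants and 10.50, 10.59, 10.39 and 10.08 in controls. Every mutant lay below controls 1 to 3, and control 4 lay among the mutants. The difference was -0.40 (SE 0.15, adjusted p = 0.267 in limma), -0.46 within the low-bioB arrays, -0.33 within the high-bioB arrays and -0.42 with the macrophage covariate.

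Pfkl read 9.05, 9.37, 9.53 and 10.94 in mutants and 10.15, 10.12, 11.40 and 10.27 in controls. Its difference was -0.76 (SE 0.44, adjusted p = 0.443 in limma), -1.16 without mutant 4 and -0.46 without control 3. Mutant 4 and control 3, where the macrophage mean was low, were highest in their groups, and the covariate gave -0.17. Pfkm read 8.64, 9.001, 9.29 and 9.49 in mutants and 8.998, 9.08, 9.71 and 9.55 in controls, with a difference of -0.23 (SE 0.22) that was 0.046 with the covariate.

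The aldolase gene Aldoa, read by probe sets whose names mark possible cross-hybridisation, differed by -0.076 (SE 0.076). The brightest probe sets of Hk3, Pgd and Tkt carry the same mark. Aldoc, the brain-type aldolase, read 10.37, 10.43, 10.19 and 9.77 in mutants and 10.33, 10.62, 9.65 and 8.03 in controls. Its difference of 0.54 rested on control 4, and was -0.0068 without it. Triosephosphate isomerase, Tpi1, differed by -0.35 (SE 0.17, adjusted p = 0.355 in limma), with -0.34 and -0.37 from its other probe sets, by -0.51 without mutant 4 and by -0.18 with the macrophage covariate.

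Lower glycolysis showed small differences. Gapdh, the glyceraldehyde-3-phosphate dehydrogenase, differed by -0.11 (SE 0.094), the phosphoglycerate kinase Pgk1 by -0.10 (SE 0.083) and the phosphoglycerate mutase Pgam1 by -0.16 (SE 0.072, adjusted p = 0.340 in limma). Pyruvate kinase, Pkm, read 12.92, 13.04, 13.24 and 13.58 in mutants and 13.36, 13.27, 13.76 and 13.41 in controls. Mutants 1 to 3 lay below every control and mutant 4 above all but control 3. Its difference was -0.25 (SE 0.16), and -0.054 with the macrophage covariate. Eno2, the neuronal enolase, was dim, with 6.96 ± 0.39 in mutant and 6.81 ± 0.34 in control arrays (SD, n = 4).

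The oxidative arm of the pentose phosphate pathway differed little between genotypes. Pgls, the lactonase, differed by -0.16 (SE 0.13), and Pgd, the second NADPH-producing dehydrogenase, by 0.15 (SE 0.12), with 0.13, 0.15 and 0.11 from its other probe sets. H6pd, which makes NADPH inside the endoplasmic reticulum, differed by 0.054 (SE 0.145). None had an unadjusted p under 0.05 in limma.

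In the non-oxidative arm Rpe, the ribulose phosphate epimerase, read 11.00, 11.08, 10.94 and 11.08 in mutants and 11.22, 11.23, 11.08 and 11.47 in controls. Every control lay above every mutant, by less than 0.01 for control 3. The difference was -0.23 (SE 0.094, adjusted p = 0.300 in limma), and the other probe sets of Rpe gave -0.095 and -0.040. Rpia, the ribose phosphate isomerase, differed by 0.10 (SE 0.13), the transketolase Tkt by 0.16 (SE 0.18) and the transaldolase Taldo1 by -0.039 (SE 0.090). The other probe sets of Tkt gave 0.36 and 0.21.

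Prps1 and Prps2 encode the synthetases that activate ribose for nucleotide synthesis. Prps1 read 10.17, 10.06, 10.17 and 10.13 in mutants and 10.48, 10.47, 10.06 and 10.75 in controls. Controls 1, 2 and 4 lay above every mutant, and control 3 lay with the mutants. The difference was -0.31 (SE 0.14, adjusted p = 0.320 in limma), and it was -0.44 without control 3 and -0.21 without control 4. Prps2 read 10.52, 10.11, 10.42 and 9.27 in mutants and 9.86, 9.79, 9.53 and 10.13 in controls, a difference of 0.25 (SE 0.27) with groups that overlapped. The ratio of Prps2 to Prps1 differed by 0.56 (exact two-sided permutation p = 0.143).

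Of the 10 isozyme ratios, Ldhb to Ldha was the 1 whose genotypes did not overlap. Hk3 to Hk1 differed by 1.00, Aldoc to Aldoa by 0.61, Slc2a3 to Slc2a1 by 0.54, Pfkm to Pfkl by 0.53, Hk2 to Hk1 by 0.42 and Pfkp to Pfkl by 0.36. Their exact two-sided permutation p-values ran from 0.171 to 0.543. These ratios were spread widely within genotypes: the SD of Hk3 to Hk1 was 1.46 in mutants and 1.02 in controls, against 0.18 and 0.20 for Ldhb to Ldha (n = 4 each).

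**Figure D4:**
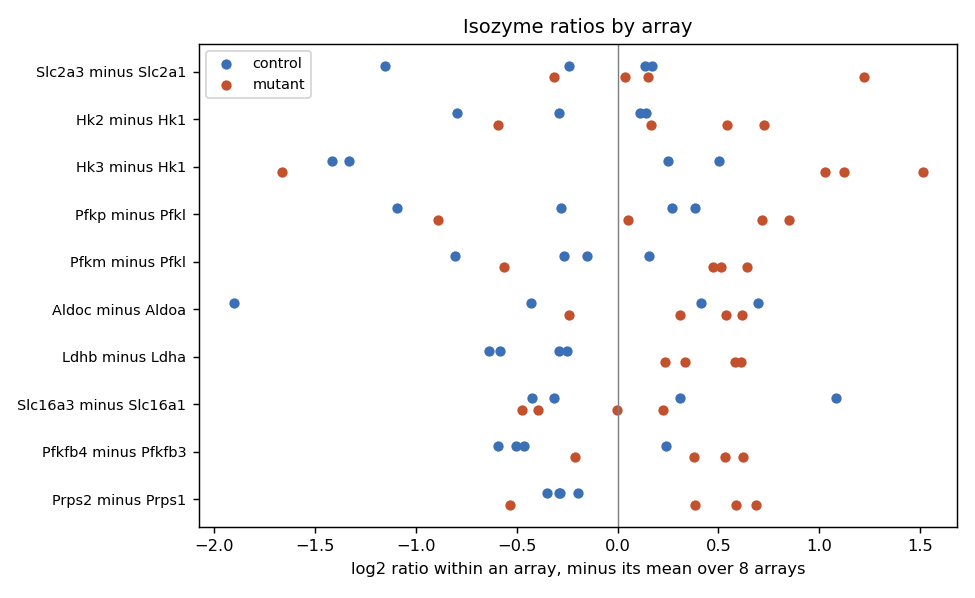
Log2 ratio of isozyme genes within each array, minus the mean of that ratio over the 8 arrays (x axis), for 10 pairs; each point is 1 of 4 control or 4 mutant arrays. The mutant and control points separate for Ldhb minus Ldha and mix in the other 9 pairs.

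Many of these genes shared an order of arrays that the genotype does not set. The order was counted for the 32 alone and not over all genes, so it cannot be called particular to them. Of the 32, 18 were highest among mutants in mutant 4, 14 were highest among controls in control 3, and 13 did both, among them Hk1, Pfkl, Pfkm, Tpi1, Pkm, Ldha, Ldhb and Slc16a3. Conversely 9 were lowest among mutants in mutant 4, including Hk3, Pfkfb4, Pgd, Tkt and Prps2. Both arrays had low macrophage marker means (11.19 and 11.21) and low poly-A controls, while control 4 had a low macrophage mean (11.14) with high poly-A controls (8.68). With the macrophage covariate 7 of the 32 differences turned sign, 12 were smaller by over 1.5 times, among them Slc2a1, Pfkl, Tpi1, Pkm, Ldha and Pfkfb4, and 3 were larger by over 1.5 times. How many of all genes turned sign, shrank or grew with the covariate was not counted. The median difference in that fit over the 32 was -0.045, against 0.013 over all genes.

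**Figure D5:**
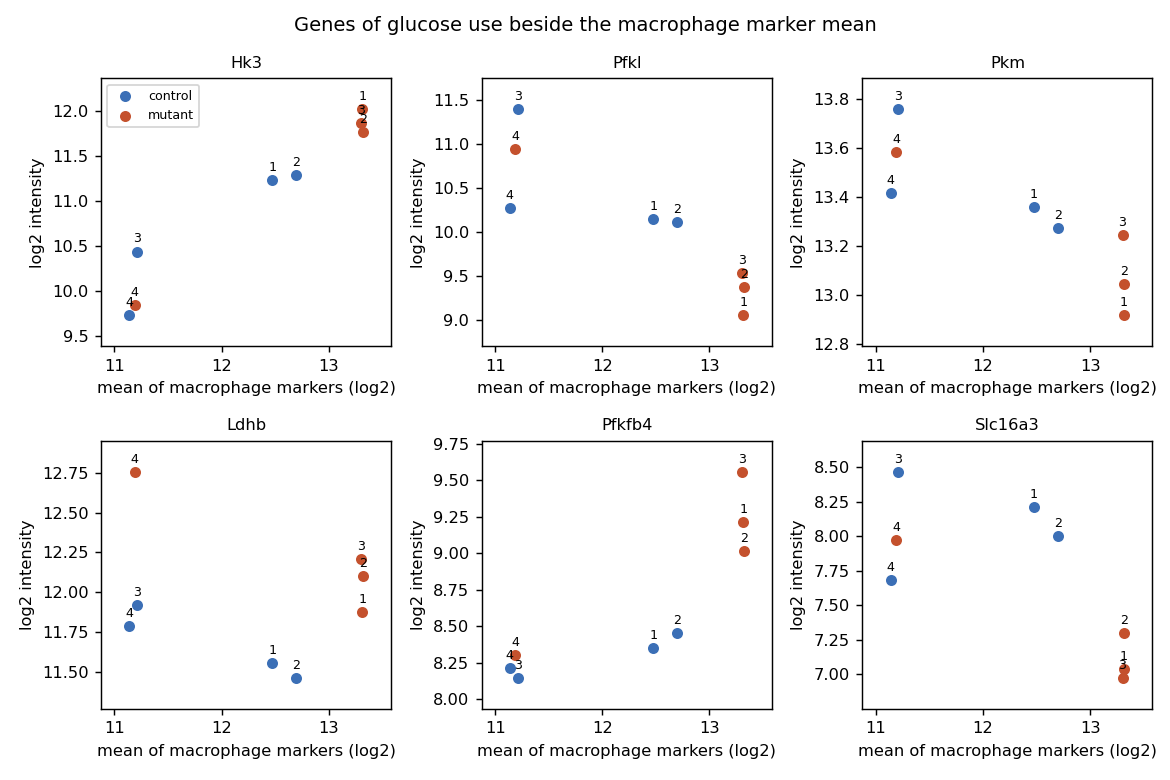
Log2 intensity of Hk3, Pfkl, Pkm, Ldhb, Pfkfb4 and Slc16a3 (y axis) against the mean log2 intensity of 20 macrophage markers (x axis) on the 4 control and 4 mutant arrays; numbers are replicates. Hk3 is high and Pfkl and Pkm are low where the marker mean is high, and for Ldhb mutant 4 lies above controls 3 and 4, which have a like marker mean, while no control has a marker mean as high as mutants 1 to 3.

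A single array decided several counts. Without mutant 4, 1315 of 18194 genes (7.23%) passed over all genes, and 4 of the 32 did (12.5%): Tpi1, Ldha and Slc16a3, lower in mutants, and Pfkfb4, higher. Leaving out any other array gave at most 31 genes and 0 of the 32. The count lower at an unadjusted p under 0.05 in limma was 9 without mutant 4, 1 without mutant 1 or mutant 3, 2 without mutant 2, control 1 or control 2 and 3 without control 4. The count higher was 6 without mutant 4 and 1 without control 2. In either direction, 46.9% of the 32 and 24.1% of all genes reached that limit without mutant 4. Without any other single array the shares were 9.38% to 18.8% of the 32 and 9.55% to 14.7% of all genes. Array weights, which give less weight to arrays far from their group, called 1470 genes (8.08%) and 5 of the 32 (15.6%), Pfkp in addition to those 4. The low-bioB arrays alone called 2087 genes (11.5%) and 10 of the 32 (31.2%), and the high-bioB arrays called 0 genes in limma, with 5.21% of all genes at an unadjusted p under 0.05.

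Of 73 further genes of glucose metabolism listed, 66 were measured and 0 passed over all genes in limma, while 10 had an unadjusted p under 0.05 (15.15%, against 15.5% of all genes), 6 lower and 4 higher. Their median difference was 0.015. Fbp1, the gluconeogenic phosphatase that opposes phosphofructokinase, read 9.34, 9.29, 10.19 and 9.15 in mutants and 7.65, 8.36, 7.81 and 7.30 in controls. The lowest mutant lay above the highest control, and the difference was 1.71 (SE 0.28, adjusted p = 0.107 in limma), or 3.27-fold. It was 1.31 within the low-bioB arrays, 2.11 within the high-bioB arrays and 1.47 with the macrophage covariate.

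Khk, the ketohexokinase that phosphorylates fructose, read 8.80, 8.66, 9.01 and 8.53 in mutants and 8.16, 8.24, 8.11 and 8.03 in controls. It also did not overlap, with a difference of 0.62 (SE 0.11, adjusted p = 0.132 in limma) and 0.50 with the covariate. The muscle glycogen phosphorylase Pygm differed by 0.36 without overlap but was dim (5.54 in mutants), and the transporter gene Slc2a12 by 0.26. Lower in mutants were Minpp1 (-0.45, without overlap), a phosphatase that can bypass part of lower glycolysis, and Adpgk (-0.48), an ADP-dependent glucokinase. So were Gpd2 (-0.53), the mitochondrial glycerol phosphate dehydrogenase, Gfpt2 (-0.51) of the hexosamine branch, Pgm1 (-0.50), a phosphoglucomutase, and Slc2a13 (-0.45), an inositol transporter. Among 13 measured regulators 0 had an unadjusted p under 0.05 in limma. Their differences ran from -0.33 to 0.34, with 9 negative (69.2%, against 51.7% of all genes) and 4 positive.

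Most genes had several probe sets, and these largely pointed the same way. For 19 genes with more than 1 there were 37 further probe sets, of which 31 had the sign of the brightest. Of the 6 with the opposite sign, 4 lay above the median probe set, among them 1 each for Slc2a3, Slc2a4, Pfkl and Aldoa. The dimmest probe set of Pfkl (mean 6.99) differed by 0.18, against -0.76 for the brightest. In that dim probe set every mutant was above every control (unadjusted p = 0.0202 in limma).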

How the data were processed

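The authors deposited a table of log2 intensities from 8 arrays, summarised to probe sets with RMA (per the submitters' processing notes, which name no version), and no rescaling was added. The table has 45101 probe sets: 34958 carry a single gene symbol, 932 carry several, and for 9211 the platform annotation at hand lists none. For 34754 an Entrez identifier led to a current RefSeq symbol. The brightest probe set by mean over the 8 arrays stood for each of 18194 genes. Differences (mutant minus control) came from limma 3.58.1 (R 4.3.3), run over all genes without covariates, with Benjamini-Hochberg adjustment and a threshold of 0.05. Isozyme ratios were compared by exact permutation over 70 divisions of the arrays. Every gene of the list could be named, and of the further genes of glucose metabolism the 10 with the smallest unadjusted p under 0.05. The members and lists were chosen with earlier results of these data known. Alternatives covered scaling, probe set choice, dim genes, variance model, weights, thresholds, the replicate number, blocks and subsets by spiked controls, the macrophage mean and leaving out each array. On simulated data with 18194 genes the fit found 78% of the 100 genes shifted by 1 and 94% of the 100 shifted by 2, and 3 of its 175 calls were wrong. The differences of the 32 listed genes, from -0.77 to 0.73, were all smaller than these shifts. The shares found therefore do not tell how often differences of that size would be called. They also need not hold for larger differences, because the spread of these arrays may differ from the simulated one. Fbp1, at 1.71, did not pass over all genes here (adjusted p = 0.107 in limma), while 16 genes did.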

Additional observations from a re-analysis of the deposited data

Results flagged for a closer look

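Among 53 genes and ratios tested in each genotype (106 groups of 4 arrays, of which chance alone would flag about 5.3), 8 groups had 1 array far from the other 3. Mutant 4 read 9.85 in Hk3, where the other mutants read 11.76 to 12.02. It also read 10.40 in H6pd, where the others read 9.947 to 10.004. Its ratio of Hk3 to Hk1 was -1.38, against 1.31 to 1.80, and its ratio of Pfkm to Pfkl was -1.45, against -0.41 to -0.24. Control 3 read 11.40 in Pfkl (others 10.12 to 10.27), 14.20 in Aldoa (14.04 to 14.06) and 10.37 in H6pd (9.90 to 9.92). In control 4 the ratio of Pfkfb4 to Pfkfb3 was -1.18, against -2.01 to -1.89. The part of the macrophage marker mean or of the poly-A controls in these values was not tested.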

How the results depend on the processing

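The change of the Ldhb to Ldha log ratio stayed between 0.81 and 1.02 over all 18 alternatives. Its exact permutation test lost the threshold where the divisions allowed were too few: 0.88 with the replicate block (p = 0.125) and with low against high bioB as a block (p = 0.0556), and 0.90 and 0.87 in the low-bioB and high-bioB arrays alone. Same-numbered arrays had correlations of deviations of 0.47, 0.42, -0.092 and 0.37 for numbers 1 to 4; since that of number 3 was under 0.1 and the labels tie no arrays together, the numbers were not taken as pairs. Of the arrays, 0 mutants and 2 controls were closest to the other genotype's array of their number. The replicate block called 0 genes in limma and left 21.9% of the list at an unadjusted p under 0.05. The count of 16 genes was 0 without s and x probe sets and with an ordinary linear model, 1470 with array weights, 41 at an adjusted p under 0.1, 2087 and 0 in the low-bioB and high-bioB arrays alone, 2 with dim against bright poly-A controls as a block (poly-A block) and 40 with the macrophage covariate. Leaving out 1 array gave 0 to 1315. Where limma called 0 genes, 5.21% (high-bioB arrays alone) to 21.0% (replicate block) of all genes had an unadjusted p under 0.05. Listed genes lower at an unadjusted p under 0.05 (5) numbered 11 with array weights, 0 at a limit of 0.01, 12 and 0 in the low-bioB and high-bioB arrays alone, 10 with the poly-A block, 2 with the covariate and 1 to 9 without 1 array. Those higher (2) numbered 0 at 0.01, 6 and 1 in the low-bioB and high-bioB arrays alone and 1 to 6 without 1 array. In either direction, 27.9% of all genes and 43.75% of the listed genes were under 0.05 with array weights. In that order the low-bioB arrays alone gave 28.6% and 56.25%, and the high-bioB arrays 5.21% and 3.125%. The poly-A block gave 21.8% and 37.5%, and the covariate 17.5% and 12.5%. At the limit of 0.01 the shares were 4.84% and 0%. The median of the list ran from -0.18 to -0.045.
Signs turned for 12 genes and 5 ratios, none of which passed in the fit as reported. Averaging probe sets gave Slc2a3 -0.012, and dropping s and x probe sets -0.12. Array weights gave Slc2a3 -0.29, Eno2 -0.094 and Pfkfb3 -0.11. The low-bioB arrays gave Slc2a3 -0.56, Aldoc -0.074, Eno2 -0.25, Pfkfb3 -0.27, Rpia -0.027, Taldo1 0.046 and Slc2a3 to Slc2a1 -0.24. The poly-A block gave Slc2a3 -0.048, Taldo1 0.0029 and H6pd -0.026. The macrophage covariate gave Hk1 0.063, Hk3 -0.12, Pfkm 0.046, Aldoc -0.014, Pfkfb3 -0.12, Tkt -0.079 and Prps2 -0.032, and the ratios Hk2 to Hk1 -0.022, Hk3 to Hk1 -0.18, Pfkp to Pfkl -0.25 and Aldoc to Aldoa -0.0022. Without 1 array the differences ran from -0.17 to 0.21 for Slc2a3, -0.0068 to 0.86 for Aldoc, -0.024 to 0.26 for Eno2, -0.15 to 0.18 for Pfkfb3, -0.010 to 0.17 for Rpia, -0.096 to 0.022 for Taldo1 and -0.052 to 0.17 for H6pd. The causes were not tested.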
